A study of Gallus gallus with 14 samples.

Results

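Retinas of female chicks were compared with retinas of male chicks across all genes of the deposited table. The labels give no sex. A library was taken as female where HINTW, a gene of the female-limited W chromosome, was over 100 CPM (reads scaled to the total of the library), and as male where it was under 5 CPM, so the groups were chosen by measured values of these same libraries. By this rule 11 of the 14 libraries were female and 3 were male. All came from wild-type White Leghorn chicks, in an experiment in which a -10 D lens, which defocuses the image and makes the eye grow longer, was worn for 6 days from the age of 3 days. The 11 female libraries were 5 lens retinas (46, 47, 51, 53 and 54) and 6 control retinas (57, 58, 59, 62, 63 and 64). The 3 male libraries were 2 lens retinas (48 and 55) and 1 control retina (65). The labels do not say whether each library came from a different chick, so the p-values measure the spread between these libraries.

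In birds the male carries a pair of Z chromosomes, and the female carries a single Z and a W. The W is small and holds few genes, most of them with a copy on the Z (a gametolog), and many of those act in transcription, chromatin or signalling in every cell. Birds are known for dosage compensation that works gene by gene, with no silencing of a whole Z chromosome of the kind that X inactivation gives in mammals. In the chicken Z, a segment called the male hypermethylated region is known for long non-coding RNAs made in females; the files used here do not say which features belong to it.

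Depth was 32.3 to 42.6 M reads per library, estimated by taking the commonest low value above 0 in each library as 1 read. It averaged 37.4 M ± 3.13 (SD, n = 11) in female and 37.1 M ± 4.48 (SD, n = 3) in male libraries (exact permutation p = 0.912, two-sided, 364 assignments). The share of reads in listed genes was 33.0% ± 0.751 (SD, n = 11) in female and 33.2% ± 0.251 (SD, n = 3) in male libraries (exact permutation p = 0.695, two-sided). A marker of the retina was high in both groups. GLUL, the glutamine synthetase of Müller glia, had 478, 574 and 694 CPM (lowest, median and highest) in female retinas, against 553, 548 and 797 CPM in male retinas 65, 48 and 55.

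HINTW, the W copy of a histidine triad hydrolase, chose the groups, and its values are a description with no test. It had 117, 134 and 147.5 CPM (lowest, median and highest) in the 11 female retinas, against 0.0929, 0.345 and 0.598 CPM in male retinas 65, 48 and 55. No library lay between the thresholds. The next W genes by level in female retinas were NIPBLL, a copy of the cohesin loader NIPBL, with a mean of 81.0 CPM ± 4.34 (SD, n = 11), CHDB1, a chromatin remodeller, with 66.4 CPM ± 9.25 (SD, n = 11), and HNRNPKL and RPTC15L, each with 39.9 CPM. In male retinas these 4 genes averaged 0.207, 0.153, 0.0986 and 0.102 CPM.

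The table lists 48 W genes, and 30 of them had a mean of at least 1 CPM in female retinas. For all 30, every female value was above every male value, and these groups had to separate because W genes pass through the female libraries alone. Of the 18 other W genes, 3 had a male mean above the female mean. LOC107050706 had 0.413, 0.588 and 1.19 CPM (lowest, median and highest) in female retinas, against 1.05, 0.691 and 1.09 CPM in male retinas 65, 48 and 55, and LOC112530483 and LOC112530484 stayed under 0.31 CPM in every library. Summed over the 30 W genes of at least 1 CPM, female retinas had 611, 659 and 715 CPM (lowest, median and highest), against 0.619, 1.78 and 2.75 CPM in male retinas 65, 48 and 55. The male sums were 0.0930%, 0.268% and 0.413% of the female mean. Over all 48 W genes the male sums were 2.20, 2.82 and 4.56 CPM, against 616 to 721 CPM in female retinas. In the same 3 retinas the median over the 21 W genes with a female mean of at least 10 CPM was 0.0682%, 0.242% and 0.485% of the female mean. The trace was thus lowest in control retina 65 and highest in lens retina 55 by all 3 measures. The source of this trace was not tested. Among the 11 female retinas the W genes were steady. The coefficient of variation of those 21 genes ran from 4.01% to 13.9% with a median of 7.89%, and CHDB1 had the highest. W sums averaged 654 CPM ± 35.1 (SD, n = 5) in female lens and 675 CPM ± 23.9 (SD, n = 6) in female control retinas.

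**Figure D1:**
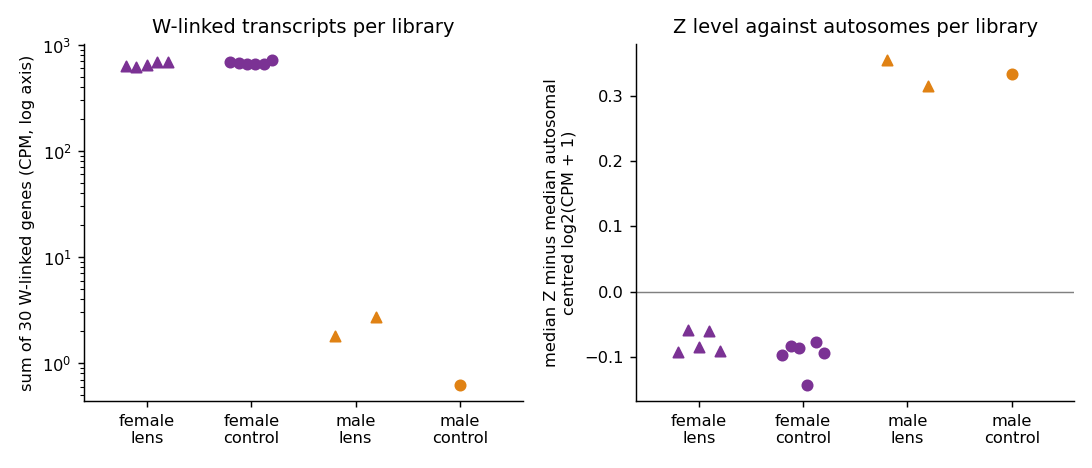
Left, summed CPM of the 30 W-linked genes of at least 1 CPM in female retinas, per library on a log axis; right, the median over tested Z-linked genes of centred log2(CPM + 1) minus the same median over autosomal genes. Each point is 1 library (triangles lens, circles control, purple female, orange male). The female libraries hold at least 611 CPM of these transcripts, the male libraries at most 2.75 CPM, and the Z level of the 3 male libraries lies above that of all 11 female libraries.

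Female retinas had less RNA from most Z genes, with a median of 0.719 times the male level, and autosomal genes as a whole showed no such shift. The log2(CPM + 1) values of the 11132 genes that reached 1 CPM in 7 or more of the 14 libraries were fitted with limma with lens wear as a covariate, and Benjamini-Hochberg adjustment ran over all of them. All differences are female minus male on this log2 scale, which understates changes of low genes. Of 554 tested Z genes, 345 were lower in female retinas and 15 were higher at an adjusted p under 0.05, and 194 passed in neither direction. Of the 15, 10 reached 1 CPM in no male library (9 features named by LOC numbers and PGM5), so they passed the filter through the female libraries alone, and nothing is read from their calls. Over all tested genes, 3.76% were called, 3.14% as lower and 0.62% as higher, and over the 10513 tested autosomal genes 0.038% and 0.228%. Genes of the W, the chromosome of HINTW, make up 30 of the 69 higher calls over all genes. The median Z difference was -0.42, with quartiles of -0.61 and -0.19, against an autosomal median of -0.00118. The median ratio of female to male mean CPM was 0.719 over Z genes and 1.01 over autosomal genes. For 334 Z genes every female value was below every male value, and for 13, of which 9 are those LOC features, every female value was above. Among autosomal genes such separation held for 0.133% in the lower and 0.504% in the higher direction.

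The shift was present in each library. Each gene was first centred on its mean over the 14 libraries, 11 of them female. A value of 0 is thus not an even level of Z and autosomes, and only the gap between the sexes can be read. The centred Z median minus the autosomal one lay between -0.143 and -0.0583 in the 11 female retinas. It lay between 0.315 and 0.354 in the 3 male retinas, and the ranges did not overlap. Female lens retinas averaged -0.0778 ± 0.0171 (SD, n = 5) and female control retinas -0.0973 ± 0.0238 (SD, n = 6). Z genes took 4.19% ± 0.0499 (SD, n = 11) of the reads in listed genes in female and 5.41% ± 0.0725 (SD, n = 3) in male retinas. In bulk tissue, fewer cells of a type and less RNA per cell cannot be told apart.

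**Figure D2:**
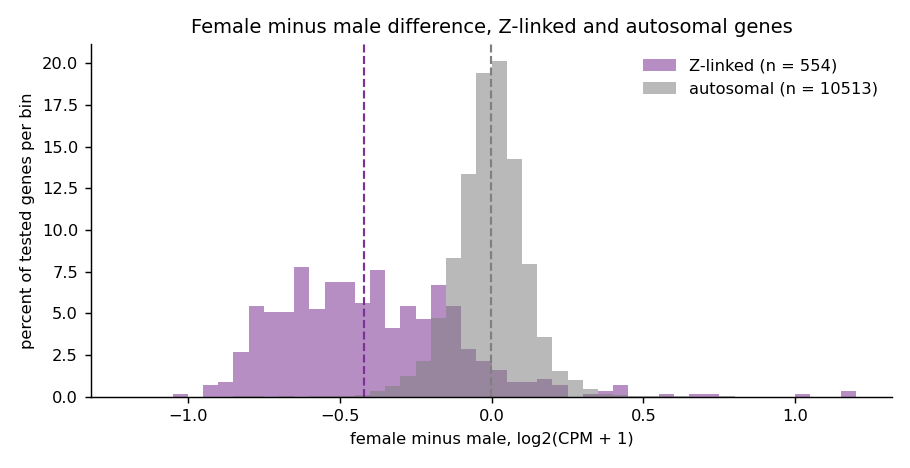
Histogram of the female minus male difference on the log2(CPM + 1) scale for tested Z-linked genes (purple) and autosomal genes (grey), as percent of the genes of each class per bin; dashed lines mark the medians. The Z-linked median is -0.42 and the autosomal median is close to 0; 6 Z-linked genes and 1 autosomal gene lie outside the drawn range.

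The shift was uneven from gene to gene. A gene with no adjustment for its copy number would have a ratio of 0.5. The ratios are of mean CPM without the lens covariate, so they can depart from the fitted difference in genes that respond to the lens. For PDE6B the ratio was 1.03 and the fitted difference -0.13. Of the 299 Z genes with a mean of at least 10 CPM, 1 had a ratio under 0.5, 51 lay from 0.5 to 0.6, 77 from 0.6 to 0.7, 61 from 0.7 to 0.8 and 57 from 0.8 to 0.9. Another 42 lay from 0.9 to 1.1 and 9 above. By the same cuts, 89.6% of 5379 autosomal genes lay from 0.9 to 1.1. The 95% interval of the difference lay wholly above the Z median for 163 of 554 Z genes and wholly below it for 155. Of the 194 Z genes that were not called, 125 had an interval wholly above the Z median, and for 22 the interval held both that median and 0. The rest had intervals that lay below 0 and reached the Z median, and they did not pass after adjustment. The genes not called were thus a mix. Some had a smaller difference, some had a difference that was not resolved, and some missed only the adjusted threshold.

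The Z median ratio differed modestly between groups by expression level or gene length. In 4 equal groups of all tested genes by mean level, from low to high, the Z median ratio was 0.713, 0.692, 0.695 and 0.774. The median differences were -0.34, -0.48, -0.50 and -0.36, with no steady trend. The share called lower was 38.2%, 63.2%, 73.2% and 72.2%. The highest group, with means of at least 28.8 CPM, held 133 Z genes, of which 96 were lower. In 4 equal groups by the gene's span on the chromosome, from short to long, the Z median ratio was 0.678, 0.687, 0.744 and 0.745. The median level over the same span groups was 4.54, 9.70, 18.1 and 26.4 CPM, so span and level cannot be told apart here.

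Among Z genes of at least median level (10.5 CPM), the 10 with the largest falls in female retinas came from varied cell functions. CETN3 encodes a centrin, a calcium-binding protein of centrioles. It had 10.3, 14.7 and 16.8 CPM (lowest, median and highest) in female retinas, against 31.97, 31.1 and 26.6 CPM in male retinas 65, 48 and 55. All 11 female values lay below all 3 male values, and the difference was -1.04 ± 0.13 (SE, limma adjusted p = 2.26e-05), the only Z gene past -1. XPA, which recognises damaged DNA in nucleotide excision repair, had 10.1, 11.4 and 12.1 CPM in female retinas, against 21.4, 21.9 and 23.4 CPM in the same male retinas. Its difference was -0.93 ± 0.066 (SE, limma adjusted p = 1.35e-08). The groups were again fully apart, with little spread within either.

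CHRNA6, a subunit of neuronal nicotinic acetylcholine receptors, had 15.1, 15.9 and 18.3 CPM in female retinas, against 34.7, 28.7 and 27.9 CPM in male retinas 65, 48 and 55, a difference of -0.89 ± 0.062 (SE, limma adjusted p = 1.03e-08). NXNL2, a thioredoxin-like protein known in the mouse as a trophic factor for cones, had 25.6, 29.1 and 31.3 CPM in female retinas, against 49.6, 52.1 and 52.1 CPM in male retinas. In both genes no female value reached the lowest male value. The other members of this group were ATP5A1Z, the alpha subunit of mitochondrial ATP synthase, WDR70, the ribosomal protein gene RPS6, the protein-unfolding ATPase VCP, SNCAIP, whose product binds alpha-synuclein, and the cholesterol carrier STARD4. Their differences ran from -0.93 to -0.82, and their female and male values did not overlap either. These are values of the Z gene alone, with no W copy added. All 10 kept their call when each library was left out in turn, but they were picked as the largest falls in these same libraries. Of all 554 tested Z genes, 334 had every female value below every male value.

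The most abundant Z genes, named here after their values were seen, showed the same unevenness at levels where counting error is small. APC, a brake on Wnt signalling, led with 421, 469 and 513 CPM (lowest, median and highest) in female retinas, against 624, 580 and 603 CPM in male retinas 65, 48 and 55, a difference of -0.39 ± 0.052 (SE, limma adjusted p = 3.77e-05). ADGRV1, an adhesion receptor of photoreceptor and hair cell ciliary links, had 225, 250 and 282 CPM in female retinas, against 396, 468 and 401 CPM in male retinas, a difference of -0.72 ± 0.052 (SE, limma adjusted p = 1.80e-08). The scaffold protein gene MPDZ and the receptor phosphatase gene PTPRD fell by 0.67 and 0.61 on the log2 scale. For these 4 genes the groups did not overlap. EGFLAM, which encodes the synaptic matrix protein pikachurin, had 200, 224 and 245 CPM in female retinas, against 222, 273 and 243 CPM in male retinas, and was not called (-0.13, adjusted p = 0.521). Of the 10 most abundant Z genes, SLC24A2, SLC1A3 and MAP1B were not called either, and RBP4 was higher in female retinas. SSBP2, the remaining gene, was lower with no overlap (-0.29, limma adjusted p = 1.82e-04).

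The difference varied little along the Z except in 1 place. In bins of 5 Mb, with 8 to 56 genes a bin, the median difference of the Z genes ran from -0.60 to -0.35 in all bins but the one from 25 to 30 Mb. In that bin, the 31 genes that reached 1 CPM in a male library had a median of -0.08, with 7 lower and 2 higher. At its centre, between SLC1A1 and CDC37L1, lie 18 features named only by LOC numbers, from 27157605 to 27398263 on GRCg6a, a stretch of 241 kb. These features had transcripts in female retinas and next to none in male retinas. Summed, they had 108, 116 and 130 CPM (lowest, median and highest) in female retinas, against 0.0309 to 0.398 CPM in male retinas. Of the 18, 13 are listed at 0 in all 3 male retinas, but only 5 of these 13 passed the filter. The features that did not pass were low in female retinas too, with a highest female mean of 0.802 CPM (LOC101750037). A male value of 0 thus shows little for most of them. Of the 18, 9 passed the filter, all through the female libraries alone, and their values are given with no test.

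The main feature is LOC100859072 (chromosome Z, 27313208 to 27329640, minus strand), annotated as a lncRNA by RefSeq. It had 71.0, 77.7 and 83.1 CPM in female retinas, against 0.0310, 0.319 and 0.0971 CPM in male retinas 65, 48 and 55. Lens retina 48 held the largest male trace here, while lens retina 55 held the largest W trace. LOC112530612 followed with 10.96, 13.4 and 18.9 CPM in female retinas and is listed at 0 in each male retina. LOC112530611 had 10.6, 11.8 and 12.9 CPM in female retinas, against at most 0.0479 CPM in male retinas. LOC107052260 had 4.81, 6.47 and 7.23 CPM in female retinas and is listed at 0 in each male retina. The other 5 features that passed the filter had female means of 1.17 to 1.55 CPM. Of the 9, 8 lie on the minus strand and LOC112530611 lies on the plus strand. Whether counting used the strand is not given in the sources used here, and reads of overlapping features may be split between them.

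The genes around these features showed little of the Z-wide fall. Within 1 Mb of LOC100859072, the 22 tested genes outside the LOC features between SLC1A1 and CDC37L1, of which 4 have LOC symbols too, had a median of -0.03, with 2 lower and 2 higher. The 7 genes at 1 to 2 Mb had a median of -0.24, the 46 at 2 to 5 Mb -0.41, the 72 at 5 to 10 Mb -0.46 and the 398 beyond 10 Mb -0.45. Named after their values were seen, CDC37L1, a co-chaperone gene, had 11.8, 12.96 and 14.4 CPM in female retinas, against 12.5, 12.4 and 13.3 CPM in male retinas 65, 48 and 55, and VLDLR, a lipoprotein and reelin receptor, had 29.9, 32.8 and 40.4 CPM in female retinas, against 34.2, 34.5 and 33.0 CPM. Female and male values overlapped in both. The 95% intervals of their differences, -0.10 to 0.18 for CDC37L1 and -0.19 to 0.09 for VLDLR, excluded the Z median of -0.42. KIAA2026 had an interval of -0.14 to 0.07. The lower genes within 1 Mb were KCNV2, a potassium channel subunit of photoreceptors, and RIC1. Beyond this stretch PTPRD, at 1.86 Mb, fell by 0.61 on the log2 scale with no overlap, at 208 CPM ± 8.17 (SD, n = 11) in female and 318 CPM ± 11.3 (SD, n = 3) in male retinas.

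**Figure D3:**
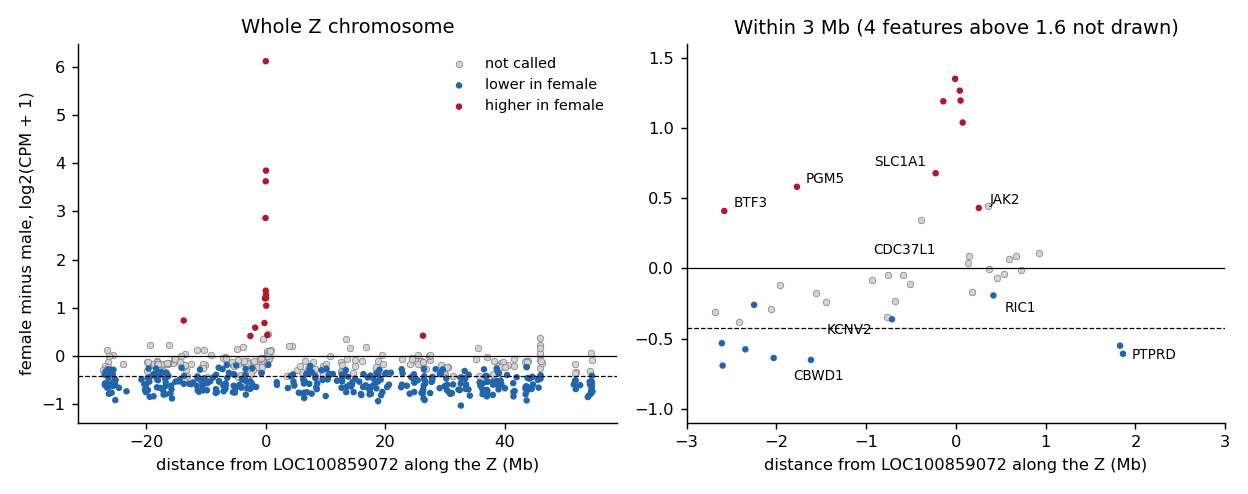
Female minus male difference on the log2(CPM + 1) scale for each tested Z-linked gene against its distance from LOC100859072 in Mb, for the whole Z (left) and within 3 Mb (right); the dashed line is the Z median of -0.42. Red points are called higher and blue points lower in female retinas; the 22 genes within 1 Mb other than the LOC features of the centre have a median of -0.03, and 4 features above 1.6 are not drawn at right.

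Outside the LOC features, 6 Z genes, PGM5 among them, were higher in female retinas. Of these, SLC1A1 and JAK2 lie closest to the LOC features. SLC1A1, a glutamate transporter of neurons, had 27.1, 28.8 and 33.1 CPM in female retinas, against 17.2, 18.5 and 17.3 CPM in male retinas 65, 48 and 55, a difference of 0.68 ± 0.059 (SE, limma adjusted p = 1.82e-07). JAK2, the kinase that signals for cytokine, growth hormone and prolactin receptors, had 52.5, 58.7 and 64.1 CPM in female retinas, against 41.7, 47.9 and 41.2 CPM in male retinas, a difference of 0.43 ± 0.058 (SE, limma adjusted p = 3.91e-05). In both genes every female value lay above every male value, and both calls held in lens libraries alone, with their 2 male retinas.

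The other 4 lie further from LOC100859072, PGM5 at -1.77 Mb, BTF3 at -2.58 Mb, SELENOP1 at -13.7 Mb and RBP4 at 26.3 Mb. SELENOP1, a selenium transport protein, had 82.6, 100.03 and 119 CPM in female retinas, against 65.4, 63.8 and 50.7 CPM in male retinas 65, 48 and 55, a difference of 0.73 ± 0.10 (SE, limma adjusted p = 8.33e-05). Its groups did not overlap, and its adjusted p was 0.0552 in control libraries alone, a fit with 1 male retina. RBP4, a retinol-binding protein, had 115, 222 and 279 CPM in female retinas, against 199, 102 and 95.7 CPM in male retinas. Its groups overlapped, and the lens values were below the control values in each sex. Among control retinas the male value lay below the lowest female value of 222 CPM. Among lens retinas both male values lay below the lowest female value of 115 CPM. Female lens retinas averaged 138 CPM and female control retinas 250 CPM. The difference with lens wear as a covariate was 0.41 ± 0.083 (SE, limma adjusted p = 3.23e-03), and the call was lost without that covariate and in control libraries alone (highest adjusted p = 0.464). BTF3, which joins nascent chains at the ribosome, averaged 4.78 CPM ± 0.482 (SD, n = 11) in female and 3.33 CPM ± 0.381 (SD, n = 3) in male retinas. PGM5, a relative of phosphoglucomutase at cell contacts, averaged 1.14 CPM ± 0.235 (SD, n = 11) in female and 0.478 CPM ± 0.305 (SD, n = 3) in male retinas, and its groups overlapped. It reached 1 CPM in female libraries alone, so nothing is read from its call.

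For 11 Z genes with a W copy the total of both copies can be set beside the male level. Other W genes, such as TERAL2 with a female mean of 26.4 CPM, were not paired here, so the pairs need not be all. The Z copy was lower in female retinas in 11 of 11 pairs, with ratios of 0.511 to 0.796 and a median of 0.594. Over all 554 tested Z genes, 345 (62.3%) were lower, with a median ratio of 0.719. With the W copy added, the ratio of the sums ran from 0.814 to 4.52 with a median of 1.21. The sum was above every male value in 5 pairs, below every male value in 2 and overlapped in 4. The 5 include HINT1, the pair with the ratio of 4.52, whose W copy HINTW chose the groups. The next highest ratio was 3.59 (ST8SIA3). The sums are a description with no test, because a W gene, HINTW, chose the groups. Reads of near-identical copies may have been split or dropped by the counting.

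In the HINT1 pair the W copy made up 87.6% of the female sum. That copy, HINTW, was over 100 CPM in each female library by the rule, so the female sums had to lie above the male sums. The female sums were 134 to 168 CPM, against 31.4 to 37.6 CPM in male retinas, while the Z copy averaged 19.2 CPM ± 1.35 (SD, n = 11) in female and 34.0 CPM ± 2.85 (SD, n = 3) in male retinas. The sialyltransferase pair ST8SIA3 had sums of 12.4 to 16.2 CPM in female and 3.40 to 4.19 CPM in male retinas. SMAD2, which carries TGF-beta and activin signals, had 22.8 to 28.6 CPM in female and 13.9 to 15.2 CPM in male retinas. UBE2R2, a ubiquitin-conjugating enzyme, and MIER3, a transcriptional repressor, were the other pairs whose female sums lay above the male sums, with ratios of 1.43 and 1.31.

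The chromatin remodeller pair CHD1 had near-equal copies in female retinas, 61.4 CPM ± 5.68 (SD, n = 11) from the Z and 66.4 CPM ± 9.25 (SD, n = 11) from the W, and the Z copy averaged 105 CPM ± 7.73 (SD, n = 3) in male retinas. Its female sums of 105 to 148 CPM overlapped male sums of 97.7 to 113 CPM. HNRNPK, an RNA-binding protein, came closest to even, with mean sums of 124 CPM ± 5.16 (SD, n = 11) in female and 122 CPM ± 1.52 (SD, n = 3) in male retinas. ZFR and SMAD7 also overlapped, and the Z copy of SMAD7 lost its call in 9 of 30 alternatives. In ATP5A1 and SPIN1, a histone mark reader, the W copy left the sum below the male level. The sums of ATP5A1 were 44.5 to 56.4 CPM in female and 57.2 to 63.8 CPM in male retinas, and those of SPIN1 were 48.5 to 58.1 CPM in female and 61.5 to 70.3 CPM in male retinas.

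**Figure D4:**
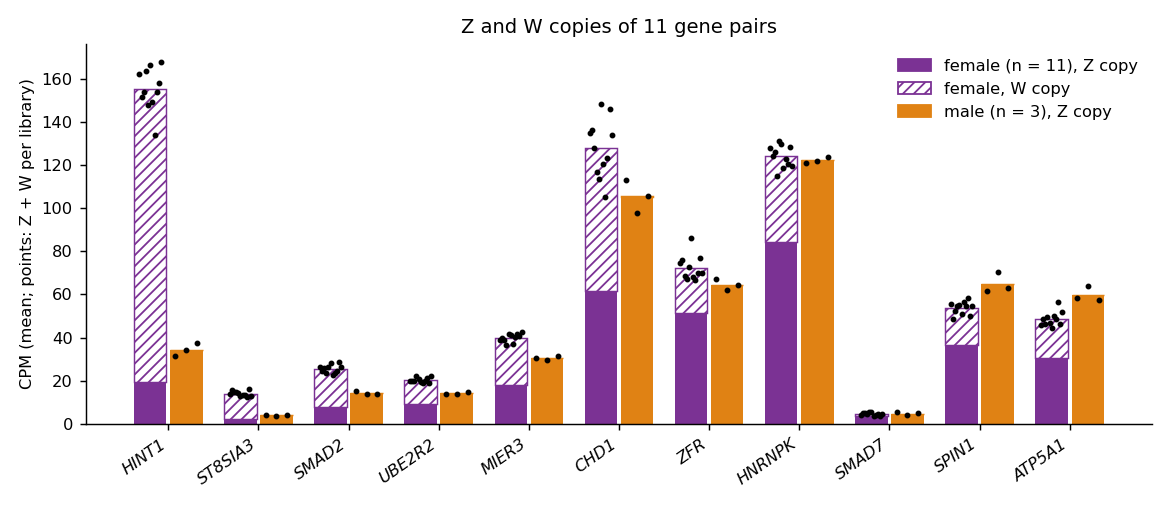
Mean CPM of the Z copy (solid) and W copy (hatched) of 11 gene pairs in 11 female (purple) and 3 male (orange) retinas, in order of the ratio of the sums; black points are the summed CPM of each library, and the axis starts at 0. The Z copy is lower in female retinas in all 11 pairs (62.3% of all tested Z genes are lower). The sum with the W copy runs from 0.814 (ATP5A1) to 4.52 (HINT1, whose W copy chose the groups) times the male sum.

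Retinal cell type and pathway lists held 31 Z genes, of which 25 were tested. Of these, 15 were lower, 1 was higher and 9 were not called, with a median of -0.36. Over all Z genes 62.3% were lower with a median of -0.42, so the share among list members was near that of the Z as a whole. Of 399 autosomal and unplaced members of the same lists 316 were tested, with 0 lower, 2 higher and a median of -0.00805 (limma). Of the 316, 20 had an unadjusted p under 0.05, 11 of them lower, against 658 of all 10513 tested autosomal genes in either direction.

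ONECUT2 and ISL1, the Z members of the lists for bipolar, horizontal and ganglion cells, were lower. ONECUT2, a horizontal cell factor, had 33.2, 37.6 and 41.4 CPM in female retinas, against 62.4, 50.5 and 58.7 CPM in male retinas 65, 48 and 55, a difference of -0.61 ± 0.061 (SE, limma adjusted p = 9.02e-07). ISL1, a factor of bipolar, horizontal and ganglion cells, had 9.96, 11.3 and 13.6 CPM in female retinas, against 18.6, 15.1 and 18.3 CPM in male retinas, a difference of -0.56 ± 0.086 (SE, limma adjusted p = 2.12e-04). Neither gene overlapped between groups. Of the autosomal markers of the same cells, 1 of 9 tested bipolar cell genes was higher, and 0 of 5 horizontal cell genes and 0 of 15 ganglion cell genes were called in limma, where 99.7% of all autosomal genes were not called. At an unadjusted p under 0.05 there were 2 bipolar, 0 horizontal and 2 ganglion cell genes, and the medians were -0.01, -0.09 and -0.05.

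Photoreceptor genes on the Z were split. KCNV2, the potassium channel subunit, had 16.8, 20.3 and 22.9 CPM in female retinas, against 25.6, 24.9 and 24.96 CPM in male retinas 65, 48 and 55, a difference of -0.36 ± 0.073 (SE, limma adjusted p = 3.63e-03). The call was lost without the lens covariate and in control libraries alone. RORB, a nuclear receptor needed for photoreceptor fate in the mouse, had 42.2, 46.2 and 49.3 CPM in female retinas, against 56.2, 56.5 and 55.9 CPM in male retinas, a difference of -0.30 ± 0.051 (SE, limma adjusted p = 5.49e-04). Both genes had every female value below every male value. PDE6B, the rod phosphodiesterase subunit, had 48.5, 77.8 and 113 CPM in female retinas, against 89.9, 77.9 and 49.7 CPM in male retinas, and the groups overlapped throughout. Its difference was -0.13 (adjusted p = 0.793, limma) with a 95% interval of -0.36 to 0.10, and lens wear moved it by -0.72 (adjusted p = 1.26e-04) in the fit with sex. SLC24A2, the cone sodium-calcium-potassium exchanger, had 211, 246 and 295 CPM in female retinas, against 291, 257 and 250 CPM in male retinas, and its interval of -0.24 to 0.00276 excluded the Z median. Of 15 tested autosomal cone genes, 12 had a difference below 0, with a median of -0.11. None of the 15 was called in limma, and 4 had an unadjusted p under 0.05, all lower. Over all 10513 tested autosomal genes, 99.7% were not called and 50.5% had a difference below 0. An unadjusted p under 0.05, in either direction, was found for 658 of them. The 18 autosomal rod genes had a median of -0.03, with 0 called in limma and 0 at an unadjusted p under 0.05.

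Of 5 Z genes of synaptic vesicle release, 1 was lower and 4 were not called, where 62.3% of all 554 tested Z genes were lower. UNC13B, which primes vesicles, had 70.2, 77.5 and 92.4 CPM in female retinas, against 94.5, 116 and 112 CPM in male retinas 65, 48 and 55, a difference of -0.41 ± 0.051 (SE, limma adjusted p = 1.50e-05). The vesicle protein genes SYT4 and SV2C and the complexins CPLX1 and CPLX4 had differences from -0.17 to -0.11, and their 95% intervals lay above the Z median. SYT4 had 106, 117 and 124 CPM in female retinas, against 131, 132 and 133 CPM in male retinas. The female values of SYT4 were all below the male values although the adjusted p was 0.0833.

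SLC1A3, the glutamate transporter of Müller glia, went the other way without passing the threshold. It had 246, 277 and 314 CPM in female retinas, against 253, 243 and 224 CPM in male retinas 65, 48 and 55, and the lowest female value lay below the highest male value. Its difference was 0.22 (limma adjusted p = 0.0695) with a 95% interval of 0.09 to 0.36, and it was called with TMM factors, quantile normalization, a common sum over listed genes, and without lens retina 46. The other Müller glia genes, all on autosomes, had a median of -0.04, and 1 of 8 was higher, the water channel gene AQP4. Over all tested autosomal genes 0.228% were higher.

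**Figure D5:**
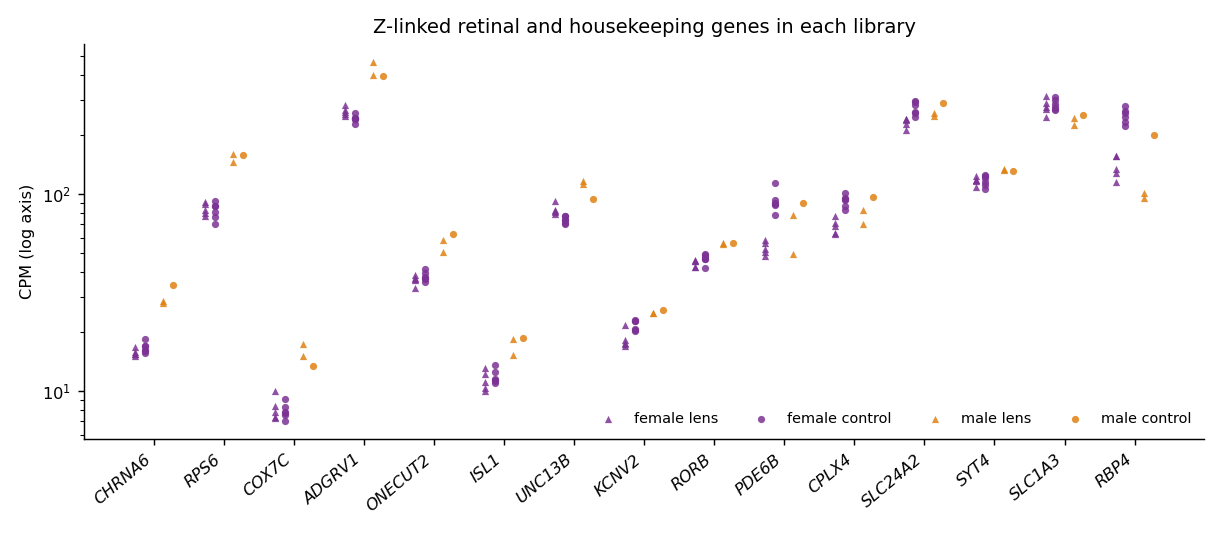
CPM on a log axis of 15 Z-linked genes in each library, female left and male right within each gene (triangles lens, circles control). Female values lie below all male values for CHRNA6, RPS6, COX7C, ADGRV1, ONECUT2, ISL1, UNC13B, KCNV2, RORB and SYT4, and overlap with them for PDE6B, CPLX4, SLC24A2, SLC1A3 and RBP4.

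Ribosomal protein and respiratory chain genes allow the Z members to be set beside autosomal partners of the same complexes. Of 4 Z-linked cytosolic ribosomal protein genes, RPS6, RPS23 and RPL17 were lower and RPL37 was not called, where 62.3% of all tested Z genes were lower. RPS6 had 70.4, 82.5 and 92.0 CPM in female retinas, against 158, 160 and 145 CPM in male retinas 65, 48 and 55, a difference of -0.88 ± 0.071 (SE, limma adjusted p = 6.90e-08). RPL37 had 7.91, 9.09 and 11.1 CPM in female retinas, against 9.22, 9.67 and 12.1 CPM in male retinas, and its interval of -0.34 to 0.07 lay above the Z median. None of the 62 autosomal or unplaced ribosomal protein genes was called at an adjusted p under 0.05 in limma, where 99.7% of all autosomal genes were not. Of the 62, 1 had an unadjusted p under 0.05, and their median was 0.05. Short ribosomal protein genes have near-identical pseudogene copies in many genomes, and whether such copies affect the values here was not tested.

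Both Z-linked respiratory genes were lower, where 62.3% of all tested Z genes were. COX7C, a small subunit of cytochrome c oxidase, had 7.01, 7.77 and 9.96 CPM in female retinas, against 13.4, 17.3 and 15.1 CPM in male retinas 65, 48 and 55, a difference of -0.83 ± 0.094 (SE, limma adjusted p = 4.95e-06). NDUFS4, an accessory subunit of complex I, averaged 9.38 CPM ± 0.84 (SD, n = 11) in female and 16.6 CPM ± 2.43 (SD, n = 3) in male retinas. Of 40 autosomal respiratory genes none was called in limma, where 99.7% of all autosomal genes were not. Of the 40, 1 had an unadjusted p under 0.05, and their median was -0.00836.

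The list of steroid synthesis and hormone receptors had 3 Z members, of which PRLR and HSD17B4 were lower and GHR was not called. Over all 554 tested Z genes 62.3% were lower. PRLR, the prolactin receptor, had 74.9, 81.3 and 94.9 CPM in female retinas, against 99.3, 101 and 116 CPM in male retinas 65, 48 and 55, a difference of -0.35 ± 0.073 (SE, limma adjusted p = 4.85e-03). The groups did not overlap, and the call was lost without lens retina 55 and in control libraries alone. GHR, the growth hormone receptor, averaged 11.2 CPM ± 1.00 (SD, n = 11) in female and 13.4 CPM ± 0.787 (SD, n = 3) in male retinas (-0.24, adjusted p = 0.160, limma). NTRK2, the receptor of brain-derived neurotrophic factor, had 24.7, 26.8 and 29.8 CPM in female retinas, against 34.3, 35.7 and 37.0 CPM in male retinas, a difference of -0.40 ± 0.059 (SE, limma adjusted p = 1.22e-04). HSD17B4, a peroxisomal enzyme of fatty acid and steroid metabolism, averaged 13.9 CPM ± 1.99 (SD, n = 11) in female and 22.9 CPM ± 1.99 (SD, n = 3) in male retinas. ALDH1A1, a retinaldehyde dehydrogenase, averaged 4.76 CPM ± 0.908 (SD, n = 11) in female and 7.79 CPM ± 1.36 (SD, n = 3) in male retinas, and lost its call in 4 of 30 alternatives, among them without control retina 65 and without lens retina 48. The autosomal estrogen receptor gene ESR1 stayed under 1 CPM in every library of either sex.

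NFIL3, a repressor of clock output, showed both the sex and the lens difference. It had 19.5, 33.1 and 53.4 CPM in female retinas, against 38.4, 61.7 and 68.8 CPM in male retinas 65, 48 and 55. Female lens retinas averaged 49.8 CPM and female control retinas 25.9 CPM, so that the male control retina lay between these means. Among control retinas the male value lay above the highest female value of 33.1 CPM. Among lens retinas both male values lay above the highest female value of 53.4 CPM. The sex difference was -0.46 ± 0.12 (SE, limma adjusted p = 0.0275). It was lost in 7 of 31 alternatives, among them without lens retina 46, without control retina 65 and without lens retina 55.

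Few autosomal genes were called. Of 10513 tested, 24 were higher and 4 lower in female retinas, 0.266% in all, and 658 had an unadjusted p under 0.05. The adjustment ran over all tested genes, where 360 Z and 30 W genes made up most of the 419 calls. The threshold of 0.05 thus does not bound the share of false calls among the autosomal genes alone. SMIM20, which assists the assembly of cytochrome c oxidase, had the smallest p. It had 4.52, 5.90 and 7.15 CPM in female retinas, against 2.20, 3.08 and 2.81 CPM in male retinas 65, 48 and 55, a difference of 0.90 ± 0.090 (SE, limma adjusted p = 9.90e-07). Its groups did not overlap, and its difference was 0.89 in lens and 0.91 in control libraries alone. DIO2, the deiodinase that activates thyroid hormone, had 53.3, 61.5 and 80.6 CPM in female retinas, against 48.3, 40.4 and 39.0 CPM in male retinas, a difference of 0.50 ± 0.086 (SE, limma adjusted p = 6.16e-04). Every female value of DIO2 was above every male value, and the call was lost in control libraries alone.

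GTSF1, a piRNA pathway protein in germ cells, averaged 6.59 CPM ± 2.05 (SD, n = 11) in female and 3.11 CPM ± 1.14 (SD, n = 3) in male retinas, and lost its call without control retina 65. NDUFAF4, a complex I assembly factor, and CETN2, a centrin, were higher by 0.39 and 0.40 with no overlap. BHLHE23, a factor of rod bipolar cells in the mouse, and AQP4, the water channel of Müller glia, were higher by 0.33 and 0.27 with overlapping groups. AQP4 had 124, 151 and 156 CPM in female retinas, against 113, 119 and 132 CPM in male retinas 65, 48 and 55. CETN2, BHLHE23, AQP4 and TMEM50B lost their calls without lens retina 48, BHLHE23 and AQP4 also without control retina 65, and TMEM50B also without lens retina 55. The lower genes with a symbol were COCH, a matrix protein, and SMARCC1, a core subunit of the SWI/SNF remodeller. COCH had 3.61, 4.07 and 10.7 CPM in female retinas, against 11.5, 4.94 and 8.68 CPM in male retinas, so that the groups overlapped. COCH lost its call in 11 of 30 alternatives and SMARCC1 in 9 of 31, both without lens retina 47, lens retina 54, control retina 65 or lens retina 55, and COCH also without lens retina 53.

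The number of autosomal calls depended on single libraries. Without lens retina 48, 23 were lower and 32 higher, without control retina 62, 12 were lower, and without control retina 64, 11 were lower. Without control retina 65, 14 were higher, and without lens retina 47 or 55, 2 were lower. Without lens retina 46, 8 were lower, and without lens retina 53, 7 were lower. Genes for histone acetylation by the MSL complex, which equalises X dosage in Drosophila, were all autosomal here. Of these, 9 of 9 tested were not called in limma, where 99.7% of all autosomal genes were not. They had 0 at an unadjusted p under 0.05 and a median of -0.07.

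Marker lists of other cells overlapped between the sexes. Summed autosomal retinal pigment epithelium genes had 34.3 to 54.1 CPM in female and 38.2 to 42.5 CPM in male retinas. Oligodendrocyte genes summed to 124 to 246 CPM in female and 168 to 175 CPM in male retinas. Their female median sum was 142 CPM and their male median 168 CPM, and all 3 tested members had differences below 0, from -0.34 to -0.12, with 0 at an unadjusted p under 0.05. Microglia genes summed to 8.81 to 14.03 CPM in female and 10.6 to 12.2 CPM in male retinas, and vessel genes to 123 to 194 CPM in female and 132 to 193 CPM in male retinas. None of their 17 tested autosomal or unplaced members was called at an adjusted p under 0.05 in limma, where 99.7% of all autosomal genes were not. Of the 17, 2 had an unadjusted p under 0.05. The blood cell marker list had 1 autosomal member in the table, at 0.0589 CPM or less.

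The sexes were unevenly spread over the lens groups, with 2 of 7 lens and 1 of 7 control libraries male. With sex in the fit, 415 genes differed between lens and control retinas (3.73% of those tested), against 307 without it (2.76%). The fits shared 305 genes, 73.5% of the 415 and 99.3% of the 307. Of Z genes, 28 were called with sex in the fit and 10 without it. For RBP4 the lens difference was -0.89 with sex and -0.95 without it, and for NFIL3 0.90 and 0.97. A test of whether the lens difference itself differed between the sexes called 0 genes (limma, smallest adjusted p = 0.756, 405 genes at an unadjusted p under 0.05). That test rests on 1 male control retina.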

How the data were processed

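RNA of 14 chick retinas (7 lens, 7 control) was measured by total RNA sequencing. Per the submitters' processing notes, STAR and Partek were used with the build GRCg6a; how reads were counted, with or without strand, is not stated there. The authors deposited 1 table of CPM values for 18631 genes with 0.0001 added to each. Listed genes held 31.7% to 34.2% of the scaling total of a library, which thus held other reads too. Low values were not all whole reads, so no count model was used. Groups came from the titles, and sex from the HINTW thresholds of the report. The members, gene lists and gene pairs were chosen with earlier results of these data known.

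The 11132 genes that reached 1 CPM in 7 or more of the 14 libraries were fitted as log2(CPM + 1), using limma 3.58.1 under R 4.3.3, an intensity trend and lens wear as a covariate. A gene expressed only in the 3 male libraries cannot pass this filter, whereas a gene of the female libraries can. W genes, from the chromosome of HINTW, which chose the groups, stayed in the fit and its adjustment and are described without a test. Start and stop are those of the deposited table, with boundaries exact to within 1 base. Gene types came from the RefSeq table of assembly GRCg7b, in which 15697 symbols matched; its coordinates were not used. The chi-square per gene was at least 6.47 in each of 91 library pairs, above counting noise, and each library was kept as 1 sample. Intervals are 95% intervals of the limma estimate. The fit was checked on simulated data. Figures were drawn with matplotlib.

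The genes named were W genes of at least 1 CPM in female libraries, the 10 largest differences per direction among called Z genes of at least median level, Z copies of 11 pairs, Z members of the lists, the 8 autosomal genes with the smallest p per direction, and a few receptors and lens-responsive genes; LOC symbols were left out of the ranked sets. The 10 most abundant Z genes, the features and genes around LOC100859072, BTF3, PGM5 and GLUL were chosen after their values were seen. Some genes that these rules name are not reported here. Alternatives covered the pseudocount, the filter, scaling (TMM, median of ratios and quantile), the prior, array weights, covariates, lens or control libraries alone, an exact permutation per gene, the threshold and leaving out each library. A filter of 1 CPM in 3 samples and a common sum over listed genes were added after seeing the data.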

Additional observations from a re-analysis of the deposited data

Results flagged for a closer look

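Among the genes printed, 180 sets of 5 or 6 female libraries were searched for a library far from the others by Dixon's test, and 14 were found, where chance gives about 1 in 20. Lens retina 53 stood apart for 5 genes. It was high for ZFR at 54.6 CPM, KCNV2 at 21.7 CPM, ST8SIA3W at 13.9 CPM and KIAA2026 at 55.5 CPM, and low for LOC112530613 at 0.521 CPM. The other female lens retinas had at most 50.4, 18.1, 11.2 and 50.4 CPM of the first 4 genes and at least 1.09 CPM of LOC112530613. Control retina 64 stood apart for 3 W genes, low for ATP5A1W at 14.8 CPM and high for ZFRL1 at 27.5 CPM and TERAL2 at 32.9 CPM. Lens retina 54 was high for ALDH1A1 at 6.30 CPM, UBE2R2L at 12.7 CPM and PGM5 at 1.598 CPM. Lens retina 46 was low for CETN3 at 10.98 CPM, where the others had at least 14.7 CPM. Control retina 58 was high for COCH at 10.7 CPM, where the other female control retinas had at most 5.31 CPM, and this value lies among the male values of COCH. Control retina 62 was high for SPIN1W at 18.5 CPM. The cause of these deviations was not tested.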

How the results depend on the processing

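No paired analysis was possible because the lens and control groups, and the female and male libraries, share no replicate number. The Z counts (345 lower, 15 higher) stayed within 1.5 times under most alternatives. Exceptions were a filter of 10 CPM (208 lower, 7 higher), control libraries alone with their 1 male (156 lower), and an exact permutation per gene, which called 0 in each class because the assignments possible within the lens groups give no p under 0.006803 and no adjusted p under 0.1521; 498 genes reached that smallest p, 370 of them on the Z. Of the 554 tested Z genes 370 reached the smallest permutation p, against 97 of the 10513 tested autosomal genes. The filter of 10 CPM also left fewer Z genes to test. In the main fit, 72.9% of the 299 Z genes with a mean of at least 10 CPM were lower, against 62.3% of all 554. Leaving out each library gave 279 to 347 lower and 14 to 17 higher Z genes. Of the 15 higher calls of the main fit, 10 passed the filter through the female libraries alone. Only the other 5 can bear on the higher direction, so the steady higher count shows little. The median Z difference moved to -0.48 with a pseudocount of 0.1, -0.29 with a pseudocount of 5, -0.22 without a filter and -0.36 as a mean, and ran from -0.44 to -0.42 when each library was left out. Autosomal lower calls (4) changed to 13 without a filter, 1 with the filter of 10 CPM, 7 with array weights, 2 without the lens covariate, 9 in lens and 2 in control libraries alone, and 0 at a threshold of 0.01. Autosomal higher calls (24) changed to 15 in lens libraries alone, 11 in control libraries alone and 9 at a threshold of 0.01. Leaving out each library gave 2 to 23 lower and 14 to 32 higher autosomal genes. The 11 female libraries alone, in a fit with no sex term, gave 252 lens calls, against 415 for all 14 libraries with sex in the fit. Of 58 named genes, 49 were called, 24 of these kept the call in every alternative other than the permutation, 25 lost it at least once, mostly in control libraries alone, and 0 changed sign while called. The cause of these changes was not tested. The depth of 32.3 to 42.6 M reads makes 1 read worth 0.0235 to 0.0309 CPM, which limits male values of W genes.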

Other observations

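Among genes on sequences not placed on a chromosome, 31 were tested, and 26 had a difference below 0, with a median of -0.12. Of these, 1 was called lower, LOC425607, with 1.79, 2.09 and 2.55 CPM (lowest, median and highest) in female retinas, against 3.12, 2.74 and 3.44 CPM in male retinas 65, 48 and 55. The build does not say which chromosome these sequences belong to.

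Some autosomal features named only by LOC numbers were called too, and are given here after their values were seen. LOC107051742 and LOC107051743 lie side by side on the plus strand of chromosome 4 (44978281 to 44987847 and 44957786 to 44978189), and both were higher in female retinas. LOC107051742 had 4.75, 7.55 and 9.66 CPM in female retinas, against 3.99, 3.85 and 3.37 CPM in male retinas, and LOC107051743 had 6.67, 9.91 and 14.8 CPM in female retinas, against 6.09, 6.40 and 3.59 CPM in male retinas. In both, no male value reached the lowest female value. Their differences were 0.78 ± 0.16 (SE, limma adjusted p = 3.99e-03) and 0.78 ± 0.20 (SE, limma adjusted p = 0.0257). LOC107053809, on chromosome 7, had the largest autosomal difference of those called, 1.44 ± 0.28 (SE, limma adjusted p = 2.57e-03). It had 5.48, 11.3 and 13.2 CPM in female retinas, against 0.866, 5.82 and 4.53 CPM in male retinas 65, 48 and 55, so control retina 65 stood far below the other male retinas. Its difference was 0.80 in lens libraries alone.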
